A study of Mus musculus with 12 samples.

Results

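These are 600 mouse small intestinal epithelial cells with high levels of S100g and Reg1, taken from 27881 cells, which is 2.15% of all cells (exact 95% binomial interval 1.98 to 2.33%, counting error only). A cell could be chosen where it had a value for S100g and none for Nt5e, a gene of the villus tip, which left 4300 cells. Each was given the mean of log1p(10000 x value / cell total) over S100g, Reg1, Sult6b2, Gm3776 and Gsta1, and the members were selected on these measured values as the 600 cells with the highest mean. The members were compared with the 17340 other cells that had values for both Fabp2 and Apoa1, called other enterocytes below. Of the members, 518 had values for both of those genes and 82 lacked at least one.

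The cells came from the small intestine of adult mice of the strain Lgr5DTR-GFP, in which cells with the stem cell gene Lgr5 carry a reporter and a toxin receptor, and all groups share that allele. The diet group of the study has 8 samples of sorted epithelial cells (CD45-, EpCAM+), read on the 10x Chromium platform from the 3′ end of transcripts after the intestine had been divided into 30 pieces and the cells of each piece tagged. The labels do not name any diet, and the piece of origin of each cell was not used here. Levels are in ppm: the values of a gene were added up over a group of cells and divided by the grand total of that group, so that all genes of a group make 1000000 ppm.

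Enterocytes are the absorptive cells of the intestinal villus. In the duodenum, the first stretch after the stomach, they take up calcium, iron and folate, and they are the first intestinal cells to meet sugars and foreign compounds from food. Calcium crosses them bound to calbindin-D9k, the product of S100g, and leaves through a calcium pump in the basal membrane. Iron enters through a divalent metal transporter, is stored in ferritin, and leaves through ferroportin.

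The genes that chose the cells lie on 3 chromosomes (GRCm38). S100g lies at chrX:162961992-162964599 on the minus strand, Reg1, which encodes a secreted lectin, at chr6:78422711-78428667, and the sulfotransferase gene Sult6b2 at chr6:142785204-142804502. The alpha-class glutathione transferase genes Gsta1 (chr9:78230656-78242684) and Gm3776 (chr9:78257129-78269166) are neighbours on the plus strand. The promoters of S100g, Gsta1 and Gm3776 are shown because S100g gives the cells their name and because Gsta1 and Gm3776 are nearly the same sequence. Each line holds the 250 bases before the RefSeq start (GRCm38), 5′ to 3′ on the gene's strand, at chrX:162964600-162964849, chr9:78230419-78230668 and chr9:78256879-78257128. Capitals mark the letters TTAATNATT, which are like an HNF1 motif, in S100g and the reverse complement of the CDX-like letters TTTATG in Gm3776.
S100g: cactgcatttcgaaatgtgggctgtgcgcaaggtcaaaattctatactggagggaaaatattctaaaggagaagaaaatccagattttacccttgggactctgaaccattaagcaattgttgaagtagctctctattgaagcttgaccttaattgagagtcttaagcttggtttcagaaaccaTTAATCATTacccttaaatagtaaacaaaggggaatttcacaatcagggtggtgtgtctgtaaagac
Gsta1: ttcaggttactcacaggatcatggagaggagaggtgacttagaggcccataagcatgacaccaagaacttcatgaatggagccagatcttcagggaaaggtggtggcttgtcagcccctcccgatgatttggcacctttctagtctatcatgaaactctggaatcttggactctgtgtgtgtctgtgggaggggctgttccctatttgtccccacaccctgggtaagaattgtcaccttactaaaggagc
Gm3776: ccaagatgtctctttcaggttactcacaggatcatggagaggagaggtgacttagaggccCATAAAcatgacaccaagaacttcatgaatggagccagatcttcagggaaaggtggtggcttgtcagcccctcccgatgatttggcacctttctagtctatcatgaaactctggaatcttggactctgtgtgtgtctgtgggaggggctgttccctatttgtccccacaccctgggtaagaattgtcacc

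The match in the S100g promoter lies 67 to 59 bases before the start, and 1.47% of all 27025 RefSeq promoters of this length hold those letters on either strand. The CDX-like letters are in 11.1% of all promoters. The Gsta1 and Gm3776 promoters are identical at 236 of 237 aligned bases. The last 500 bases of their transcripts are identical at 499 of 500 positions, and 78.1% of all 90-base stretches of the Gm3776 end occur in Gsta1, so the levels of these paralogs cannot be told apart with certainty.

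The table was treated as 1 pooled sample. Cell barcodes end in 1 of 8 numbers, which do not match the numbers of the samples, so these 8 barcode sets are given as values and ranges. No test was run between them apart from the outlier flags (Dixon) given near the end. Whether the sets came from separate animals is not stated. The sets held 2286 to 5320 cells. Members had a median cell total of 6147 and 2482 detected genes, against 5061 and 1804 in other enterocytes. Among the members, 2 cells shared a barcode with a cell of another set and none shared one with another member.

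**Figure D1:**
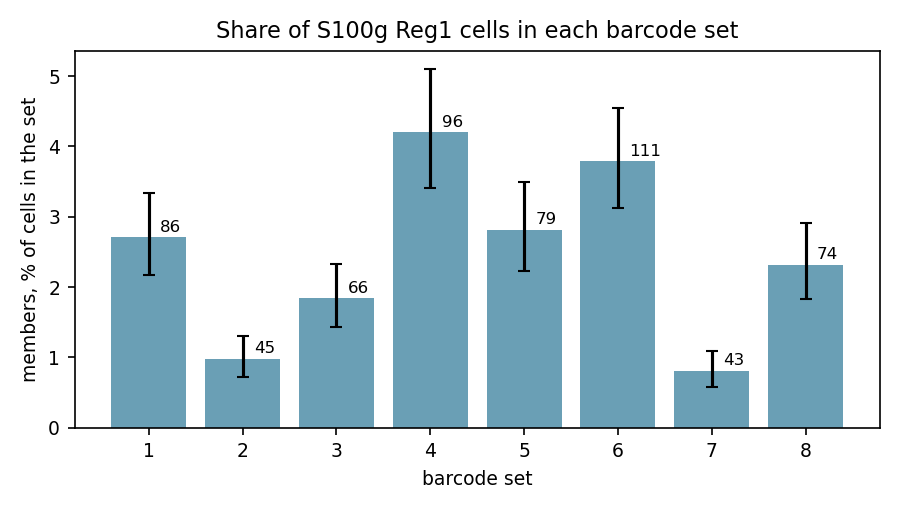
Members as a percentage of all cells in each of the 8 barcode sets (bars), with exact 95% binomial intervals that cover counting error only and the number of members beside each bar. Sets 2 and 7 have the smallest shares, 0.982% and 0.808%, and set 4 the highest, 4.20%.

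Every barcode set held members. Their number was lowest in set 7 (43) and highest in set 6 (111). As a share of cells they made up 0.808% in set 7, 0.982% in set 2, 1.84% in set 3, 2.32% in set 8, 2.71% in set 1, 2.81% in set 5, 3.79% in set 6 and 4.20% in set 4. The intervals of sets 2 and 7 (0.717 to 1.31% and 0.586 to 1.09%) lay below those of the 6 other sets, and neighbours within sets 8, 1 and 5 overlapped. As a share of cells with Fabp2 and Apoa1, members with both genes ranged from 1.02% in set 7 to 4.30% in set 4.

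The values of the rule genes describe the choice and support nothing further. Over all members S100g stood at 4827 ppm (sets: lowest 3214, median 4828, highest 6552) and at 85.2 ppm in other enterocytes. Reg1 stood at 20762 ppm (16137, 20299 and 24982) against 555 ppm, and Gsta1 at 3034 ppm (2301, 2796 and 4570) against 214 ppm. Sult6b2 was at 671 ppm against 20.4 ppm, and Gm3776 at 198 ppm against 13.5 ppm. All 5 genes had a value in 322 members, 4 of them in 251 members and 3 in 27 members. S100g also had a value in 14.7% of other enterocytes and in 11% of enterocytes chosen for the ileal genes Slc10a2 and Fabp6, cells whose median total was 5028.5. Within the members, the middle 50% of cells spanned 1189 to 5464 ppm for S100g and 11439 to 28605 ppm for Reg1. The score ran from 4.73 down to 2.25 with no gap at its end: the 50 cells just inside had 2012 ppm of S100g and 12587 ppm of Reg1, and the 50 just outside 1346 and 12830 ppm.

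Genes were described against other enterocytes where the mean of both groups was at least 10 ppm, and called higher or lower at a difference of at least 1 on the log2(ppm + 1) scale with the same direction in all 8 barcode sets. Of 8540 genes, 577 were called higher in members, 6.76% of those considered, and 1207 were called lower, 14.1%. The median log2 difference of all these genes was -0.12, and without scaling to totals it was 0.07, with 893 genes called higher and 867 lower. Against other enterocytes matched on detected genes 249 were called higher and 853 lower, and 241 of the 577 were still called. In 872 genes (10.2%) every set of members lay above every set of other enterocytes, and in 1056 (12.4%) every set lay below. Because the other enterocytes also held transcripts of the crypt (Lgr5 259 ppm and Olfm4 1403 ppm, against 7.14 and 83.9 ppm in members), the members were also set against the 2678 of them with no value for Lgr5, Olfm4, Slc12a2, Smoc2, Mki67 and Top2a, a group chosen after values had been seen. Against these crypt-free enterocytes 109 of 8208 genes were called higher (1.33%) and 230 lower (2.80%), and the median of all genes was -0.10. The crypt-free cells held more of the ileal gene Fabp6 (6972 ppm) than other enterocytes did (2837 ppm), which applies to every result against them.

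The duodenal label was checked against regional transcription factors. Of 6 factors of the proximal intestine that could be considered, 3 were called higher and none lower, with a list median of 1.59 on the log2 scale. Pdx1, a homeobox factor of the duodenum and pancreas, was at 72.2 ppm in members (sets: lowest 53.9, highest 99.1) and at 4.66 ppm in other enterocytes (2.88 to 7.51). Meis2 was at 289 ppm (183 to 408) against 17.5 ppm (7.82 to 31.1), and Onecut2 at 463 ppm (396 to 567) against 88.9 ppm (60.7 to 130). For these 3 genes no set of members overlapped a set of other enterocytes. Gata4, the factor of the duodenum and jejunum, did not reach the 2-fold difference, at 222 ppm against 126 ppm. Among distal factors, Osr2 (4.23 against 47.3 ppm) was called lower. The ileal bile acid carriers Fabp6 and Slc10a2 were called lower too, at 197 against 2837 ppm and 7.94 against 70.8 ppm. The same 3 proximal factors and Osr2 were called against crypt-free enterocytes. None of these calls goes against the label, and the piece of intestine that each cell came from was not read.

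**Figure D2:**
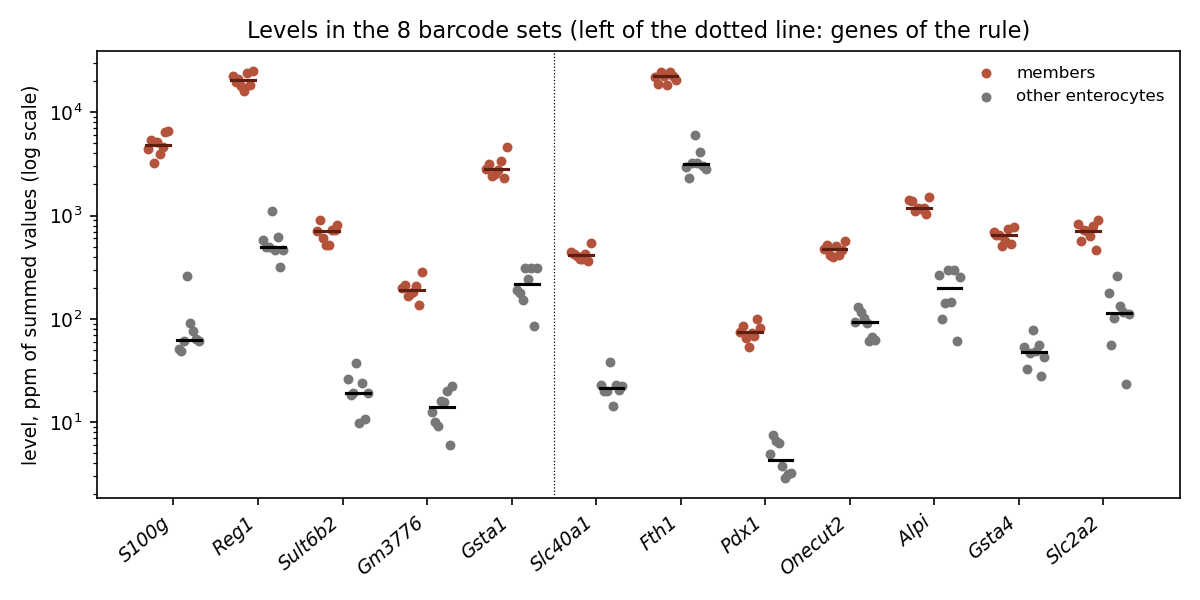
Levels in ppm (log axis) of 12 genes in members (red) and other enterocytes (grey), 1 point for each of the 8 barcode sets and a line at their median. Genes left of the dotted line chose the cells. The 7 genes right of it were picked from those called higher in members. Their points in members lie above those in other enterocytes, such as Slc40a1 at 366 to 543 ppm against 14.3 to 38.2 ppm. Of all genes considered, 10.2% were higher without overlap.

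Iron genes stood high in the members. Of 11 considered, 7 were called higher and 1 lower, with a median log2 difference of 1.04. Slc11a2, the divalent metal transporter at the brush border, was at 167 ppm in members (sets: lowest 110, median 179, highest 250) and at 29.6 ppm in other enterocytes (14, 31.7 and 36.7), a log2 difference of 2.46. The groups did not overlap. Slc40a1, which encodes the exporter ferroportin, was at 423 ppm (366, 412 and 543) against 22.7 ppm (14.3, 21.6 and 38.2), a difference of 4.16 and the largest of the iron list. Fth1, the ferritin heavy chain that stores iron, was at 21865 ppm (18174, 22155 and 24502) against 3434 ppm (2321, 3126 and 5952), a difference of 2.67. In both genes even the lowest set of members lay above the highest set of other enterocytes. Epas1, the hypoxia-inducible factor that drives iron uptake genes, was at 70.1 against 14.7 ppm, and the ferritin light chain Ftl1 at 1126 against 539 ppm. Tfrc, the receptor for transferrin-bound iron, was the gene called lower, at 77.8 against 192 ppm. The ferroxidase gene Heph was at 187 against 175 ppm and was not called. Cybrd1, the duodenal ferric reductase, was below the minimum level at 5.82 against 1.84 ppm. Against crypt-free enterocytes Slc11a2, Slc40a1, Fth1 and Epas1 were still called higher.

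Calcium and phosphate genes moved in both directions. Of 10 considered, 2 were called higher and 3 lower, with a median of -0.05, close to that of all genes. Atp2b1, the calcium pump of the basal membrane, was at 667 ppm in members (sets: lowest 556, median 650, highest 787) and at 270 ppm in other enterocytes (233, 270 and 314), a log2 difference of 1.30 without overlap. The other gene called higher was Slc20a1, a phosphate carrier, at 25.4 against 8.83 ppm. Trpv6, the apical calcium channel, was below the minimum at 2.38 against 0.198 ppm. Vdr, the vitamin D receptor, was at 235 against 278 ppm and was not called. Slc34a2, the sodium phosphate carrier of the brush border, was at 9.0 against 183 ppm, a log2 difference of -4.21, and the magnesium channel gene Trpm6 at 3.70 against 30.0 ppm.

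Vitamin carriers went in both directions. Of 9 considered, 4 were called higher and 2 lower (median 0.54). Against crypt-free enterocytes 3 of 10 were called higher and 4 lower (median -0.40). The list summed to 522 ppm in members, 605 ppm in other enterocytes and 857 ppm in crypt-free enterocytes. Slc46a1, the proton-coupled folate carrier, was at 101 ppm in members (sets: lowest 69.5, median 97.4, highest 142) against 15.5 ppm (3.70, 15.8 and 33.6), a log2 difference of 2.63 with no overlap. Slc19a3, a thiamine carrier, was at 19.3 against 1.19 ppm, and the reduced folate carrier Slc19a1 at 20.4 against 9.15 ppm. Cubn and Amn, which encode the receptor for vitamin B12 bound to intrinsic factor, were called lower, at 37.8 against 269 ppm and 44.5 against 94.8 ppm. In both of these the sets overlapped. Of 10 vitamin A genes 7 were called higher and none lower (median 1.48), among them the retinol-binding protein gene Rbp2, at 10896 against 3541 ppm, and Scarb1, a carotenoid and lipid receptor, at 24.1 against 3.82 ppm. Only Scarb1 of these was called against crypt-free enterocytes, where the list median was 0.16.

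**Figure D3:**
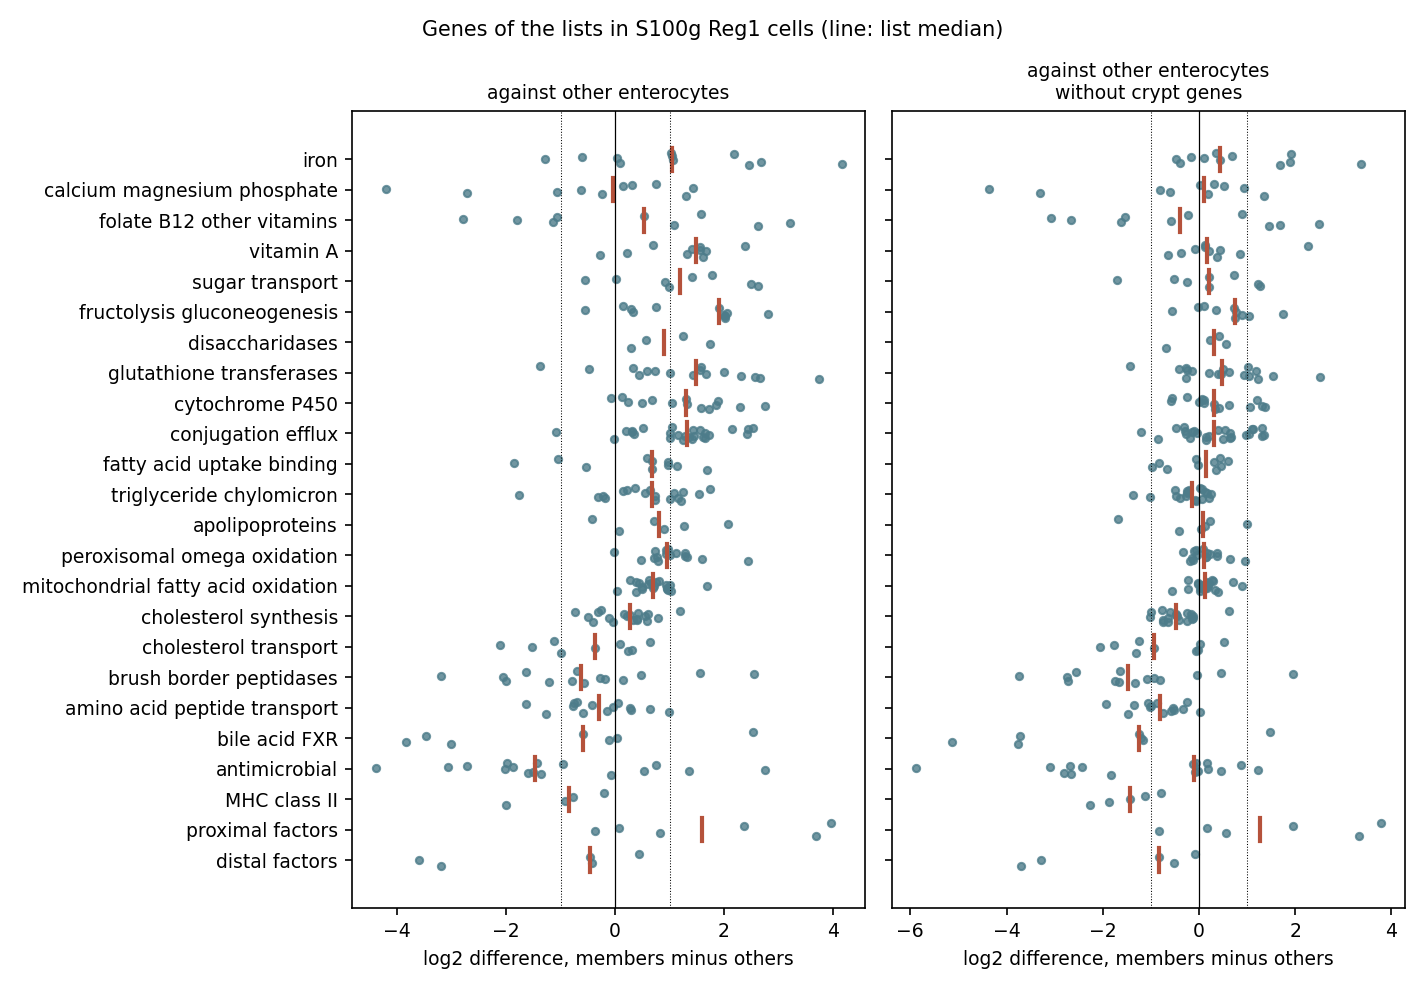
Log2 differences of single genes (points) in 24 gene lists, members minus other enterocytes on the left and minus crypt-free enterocytes on the right, with the list median as a red line and dotted lines at the 2-fold difference. The medians of most metabolic lists lie nearer 0 on the right, as for vitamin A (1.48 and 0.16), while those of the proximal factors are 1.59 and 1.26.

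Several genes of sugar entry and fructose breakdown were called higher than in other enterocytes. Of 8 sugar carriers 4 were called higher (median 1.20) and of 11 genes of fructolysis and gluconeogenesis 6 (median 1.91), with none lower in either list. Slc2a5, the fructose carrier of the brush border, was at 201 ppm in members (sets: lowest 80.0, median 178, highest 333) and at 34.8 ppm in other enterocytes (9.16, 37.8 and 66.7). Slc2a2, the basal glucose and fructose carrier, was at 728 ppm (461, 714 and 904) against 117 ppm (23.3, 114 and 259). Neither gene overlapped between the groups. Khk, which phosphorylates fructose, was at 633 against 156 ppm, and Fbp1, a gluconeogenic phosphatase, at 222 against 30.6 ppm. Slc5a1, the sodium glucose carrier, was at 1443 against 729 ppm and was not called. Slc2a2, Slc2a5 and Fbp1 were also called higher against crypt-free enterocytes. Of 4 disaccharidases, sucrase-isomaltase (Sis, 3934 against 1171 ppm) and trehalase (Treh, 104 against 43.3 ppm) were called higher, and lactase (Lct) was at 283 against 232 ppm.

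Many detoxifying enzyme genes other than those of the rule were called higher than in other enterocytes. Of 16 genes of glutathione transfer and defence 10 were called higher and 1 lower (median 1.49), of 14 cytochrome P450 genes 9 and none (1.31), and of 26 genes of conjugation and efflux 17 and 1 (1.32). Gsta4, whose last 500 bases share no 90-base stretch with Gsta1, was at 645 ppm in members (sets: lowest 503, median 647, highest 774) and at 47.4 ppm in other enterocytes (27.7, 47.5 and 78.3), a log2 difference of 3.74 without overlap. Gstm1 and Gstm3, mu-class transferases, were at 221 against 34.0 ppm and 449 against 74.3 ppm. Paralogs of these families share sequence, and their separate levels are uncertain. Cyp2c66, an enzyme that oxidises lipids and drugs, was at 253 against 36.7 ppm. Cyp3a11 stood at 327 against 86.9 ppm but ranged from 111 to 566 ppm over the sets of members. The alcohol dehydrogenase genes Adh6a and Adh1 were at 1506 against 260 ppm and 500 against 91.8 ppm. Lower were Gpx2, a glutathione peroxidase, at 134 against 349 ppm, and the drug exporter gene Abcb1a at 102 against 218 ppm. Against crypt-free enterocytes 5 of 18, 3 of 15 and 5 of 26 genes of these lists were called higher, with medians of 0.47, 0.31 and 0.31.

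Fat-handling genes were called higher in part. Of 10 genes of fatty acid uptake and binding 2 were called higher and 1 lower, and of 18 genes of triglyceride and chylomicron assembly 7 and 1. Fabp1, which binds fatty acids in the cytosol, was at 20353 ppm (sets: lowest 18895, highest 22742) against 6329 ppm (2841 to 10692), and the groups did not overlap. Among apolipoproteins Apoc2 was at 3883 against 1613 ppm and Apoa2 at 22.5 against 4.57 ppm, both called higher, while Apoa4 was at 3517 against 3332 ppm. Of 21 genes of mitochondrial fatty acid oxidation 3 were called higher, led by Acaa2 at 466 against 144 ppm, and of 16 peroxisomal and omega-oxidation genes 7, led by Cyp4a10 at 58.2 against 9.91 ppm. None of these 5 groups had a gene called higher against crypt-free enterocytes. In that contrast 2 of 18 triglyceride and chylomicron genes (median -0.14) and 1 of 6 apolipoprotein genes (median 0.08) were called lower. Of 19 cholesterol synthesis genes only Insig1, a brake on the pathway, was called higher (74.1 against 31.8 ppm). Of 9 cholesterol transport genes Abca1 and Npc1 were called lower, where 14.1% of all genes were called lower. Against crypt-free enterocytes no synthesis gene of 19 was called (median -0.47). In that contrast 3 of 9 transport genes were called lower (median -0.93), where 2.80% of all genes were called lower.

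Several peptidase genes were lower. Of 14 brush border peptidases 5 were called lower and 2 higher (median -0.63), and against crypt-free enterocytes 9 and none (median -1.48). Naaladl1, a peptidase gene, was at 24.3 ppm in members (sets: lowest 3.54, highest 43.5) and at 232 ppm in other enterocytes (95.2 to 448). Its log2 difference was -3.20 without overlap. The meprin gene Mep1a was at 34.4 against 141 ppm and the dipeptidase gene Cndp2 at 67.2 against 212 ppm. Tmprss15, the enteropeptidase that activates pancreatic trypsinogen, went the other way at 85.5 against 13.8 ppm, but ranged from 17.7 to 177 ppm over sets of members and overlapped the other enterocytes. Of 14 amino acid and peptide carriers none was called higher and 2 lower: the peptide carrier gene Slc15a1 (113 against 274 ppm) and the glutamate carrier gene Slc1a1 (18.3 against 58.7 ppm). That share is near the 14.1% of all genes called lower. Against crypt-free enterocytes 5 of the 14 carriers were called lower and none higher (median -0.82), where 2.80% of all genes were called lower.

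Defence genes were mixed. Of 16 antimicrobial genes 2 were called higher and 7 lower (median -1.47). Against crypt-free enterocytes 1 of 16 was called higher and 6 lower (median -0.10). Il18, an epithelial cytokine, was at 481 ppm (sets: lowest 336, highest 556) against 70.2 ppm (28.8 to 110), and Lypd8, which keeps bacteria from the epithelium, at 2672 ppm (2156 to 3064) against 1036 ppm (904 to 1307). Both stood apart in all sets. The lectin genes Reg3b and Reg3g, of the same family as Reg1, were at 1233 against 3188 ppm and 508 against 1546 ppm, with sets that overlapped, and were not called. Of the 7 genes called lower, Lyz1, Ang4 and Itln1 are also Paneth cell markers. Cd74, the invariant chain of MHC class II, was at 25.9 against 107 ppm and called lower.

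Outside the lists, the largest difference was that of Akp3, an intestinal alkaline phosphatase gene, at 219 ppm in members (sets: lowest 135, median 196, highest 342) and at 6.58 ppm in other enterocytes (2.24, 4.97 and 22.6), a log2 difference of 4.86. The main intestinal alkaline phosphatase gene Alpi was at 1248 against 192 ppm. Otop3, a proton channel gene, was at 115 against 4.16 ppm, Slc16a9, a carnitine efflux gene, at 60.1 against 1.88 ppm and Slc37a2, a sugar phosphate exchanger gene, at 44.5 against 1.98 ppm. Papss2, which makes the sulfate donor used by sulfotransferases such as Sult6b2, was at 3164 ppm (2516 to 3618) against 220 ppm (94.1 to 360). Among the 15 genes with the largest differences outside the lists were also the carbonic anhydrase gene Car2 (84.4 against 9.96 ppm) and the sodium bicarbonate carrier gene Slc4a7 (604 against 81.6 ppm). The transcription factor genes Nkx6-3 (30.2 against 1.51 ppm) and Foxq1 (83.6 against 8.71 ppm) belonged to them as well, as did Plut, the noncoding neighbour of Pdx1 (109 against 9.99 ppm), whose reads may not be separable from those of Pdx1. Cbr3, Tnni1, Neu3, Ugt2b5 and Adh4 completed the 15 highest, with log2 differences of 3.22, 3.0, 2.99, 2.87 and 2.83. None of the 15 overlapped between the groups, but they were chosen for large differences in the same direction in all 8 sets. Of all genes considered, 10.2% were higher without overlap. At the low end were Kcnq1ot1 (-4.85), Clca4a (-4.65), Sorbs2os (-4.44), Ly6m (-4.33), Hmga2 (-4.28), Igf1r (-4.26), Plb1 (-4.22) and Slc2a13 (-4.00). Kcnq1ot1 (0.60) and Sorbs2os (0.75) reversed against crypt-free enterocytes. Over all alternatives described below, the weakest differences were -0.25 for Hmga2, -1.08 for Igf1r and -1.31 for Slc2a13. They were -3.18 for Ly6m, -3.42 for Plb1 and -3.92 for Clca4a.

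Markers of most other cell types were lower in the members than in other enterocytes but not absent. The summed level of 8 stem cell markers was 189 ppm (sets 36.4 to 697) against 2874 ppm in other enterocytes (1276 to 5495), and that of 8 Paneth markers 1345 ppm (433 to 2612) against 6474 ppm (2432 to 12105). Goblet markers summed to 2982 ppm, from 486 to 8855 ppm over sets of members and highest in set 4, against 6080 ppm (2166 to 15022). Enteroendocrine markers summed to 775 ppm (152 to 4858) against 1452 ppm (399 to 2887), and were highest in set 7, where the somatostatin gene Sst stood at 3121 ppm. Crypt-free enterocytes had 1431 ppm of the Paneth, 3015 ppm of the goblet and 333 ppm of the enteroendocrine markers. Each lay within the range of the sets of members, whose median for the enteroendocrine markers was 436 ppm. Of 8 stomach surface markers 2 were at 0 in members (sum 54.2 against 299 ppm), and of 10 immune markers 9 (1.06 against 12.5 ppm). Pancreas and stromal markers were not lower: the 2 pancreas genes in the table summed to 30.4 against 9.92 ppm, with Cela1 called higher (30.2 against 9.85 ppm), and the stromal and endothelial list to 5.56 against 4.95 ppm, with 3 of its 5 genes in the table at 0. None of 13 mitochondrially encoded genes was called. The part of these transcripts in the differences above was not tested. Without sets 4 and 7, a choice made after seeing the values, 607 genes were called higher and 1385 lower.

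The members were also set against other groups of 600 other enterocytes. One was highest for Slc5a12 and Lct, of which lactase is known from the jejunum, and one for Slc10a2 and Fabp6, known from the ileum; set 7 held only 6 cells of the former. These comparisons share the members, so their values stand side by side and are not independent. Against Slc5a12 and Lct cells, 608 of 8029 genes were called higher (7.57%) and 519 lower (6.46%), with a median of all genes of -0.06. Against Slc10a2 and Fabp6 cells, 644 of 8096 were called higher (7.95%) and 650 lower (8.03%), with a median of -0.03.

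**Figure D4:**
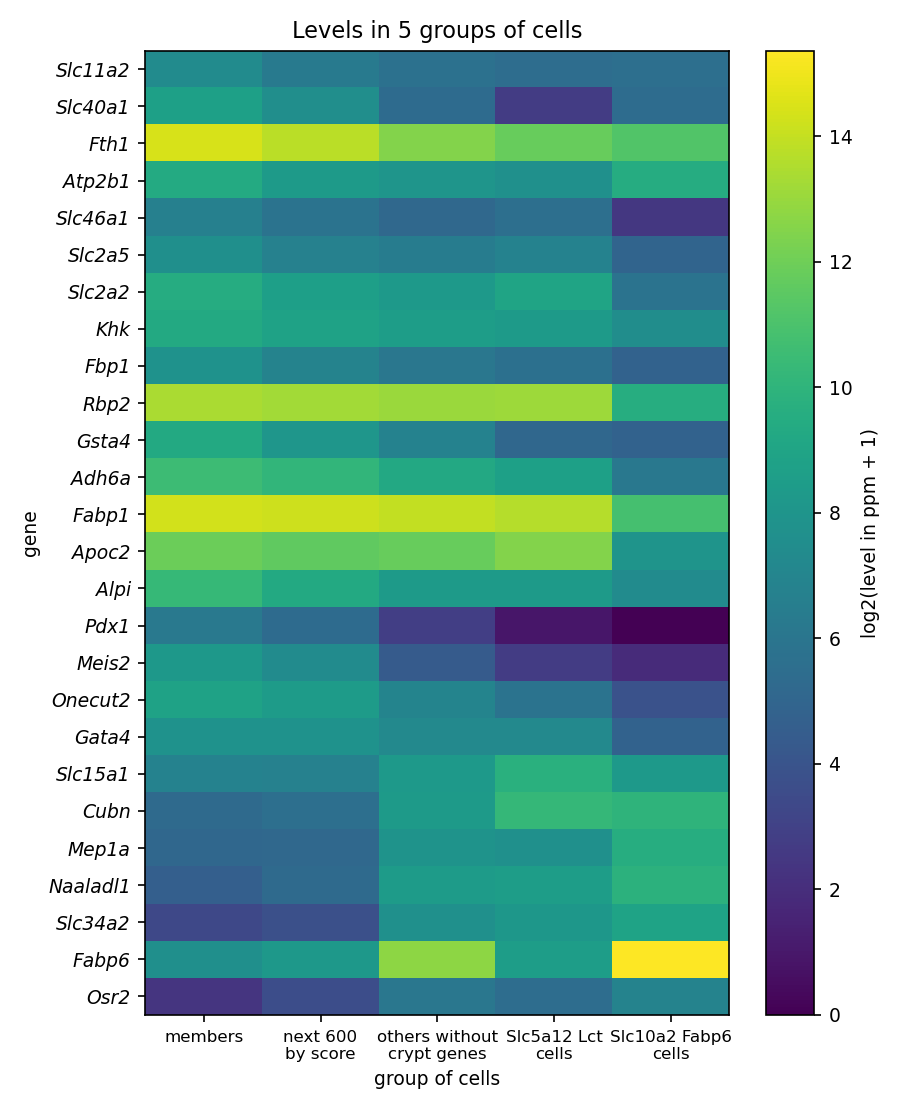
Levels of 26 genes as log2(ppm + 1), shown as colour, in members, the next 600 cells by score, crypt-free enterocytes, Slc5a12 and Lct cells, and Slc10a2 and Fabp6 cells. Pdx1 goes from 72.2 ppm in members to 0.892 ppm in Slc5a12 and Lct cells and is listed at 0 in Slc10a2 and Fabp6 cells, and Fabp6 goes from 197 to 42004 ppm.

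Slc40a1 led the genes higher than in Slc5a12 and Lct cells, at 423 against 5.65 ppm (log2 difference 5.99), followed by Meis2 (289 against 5.65 ppm), Pdx1, Slc37a2, Akp3, Ros1, Nkx6-3 and Otop3. Of 11 iron genes 4 were called higher and none lower (median 1.02), and of 16 glutathione genes 8 (median 1.37). Of the genes of protein digestion and cholesterol transport, 12 of 14 peptidases (median -1.95), 8 of 14 amino acid carriers (median -1.33) and 4 of 9 cholesterol transport genes (median -1.72) were called lower. Sugar carriers had 3 of 8 called lower and none higher (median -0.62), and no disaccharidase of 3 was called (median -0.51). Of 15 cytochrome P450 genes 1 was called higher (median -0.15), and of 21 genes of mitochondrial fatty acid oxidation 5 were called higher and 1 lower (0.53). Of 18 triglyceride and chylomicron genes 3 were called lower (-0.20) and of 10 genes of fatty acid uptake 2 (-0.21), while 5 of 17 cholesterol synthesis genes were called higher (0.81). The peptide carrier Slc15a1 was at 113 against 875 ppm, and Cubn at 37.8 against 1175 ppm. Apoa4 was at 3517 against 8899 ppm and called lower here. Rbp2 (10896 against 8770 ppm) and Fabp1 (20353 against 12853 ppm) were not called. The other genes that led the lower end were Plb1, a phospholipase gene, Enpp7, which cleaves sphingomyelin, Fam118a, Slc34a2, Npl, Grin2a and the vitamin C carrier gene Slc23a1.

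Set against Slc10a2 and Fabp6 cells, several fat and sugar genes were called higher in members. Of 10 genes of fatty acid uptake 4 were called higher and 1 lower, and of 18 triglyceride and chylomicron genes 4 and 1. Fabp1 was at 20353 against 1783 ppm, Rbp2 at 10896 against 753 ppm and Slc2a2 at 728 against 57.8 ppm. Of 6 apolipoprotein genes 4 were called higher (median 2.83), of 16 glutathione genes 11 (1.43) and of 8 sugar carriers 4 (1.43). Of 20 cholesterol synthesis genes 11 were called lower and none higher (median -1.38), such as Sqle at 20.4 against 130 ppm, whereas against Slc5a12 and Lct cells 5 of 17 were called higher and none lower. The leading higher genes were Otop3, Meis2, Pdx1, G0s2, Akp3, Slc16a9, Ros1 and Fam13a, of which Pdx1, G0s2 and Ros1 are listed at 0 in the ileal-type cells. Lowest were Saa1, Tmigd1, Fgf15 (the hormone that signals bile acid uptake to the liver), Slc5a8, Mfhas1, Nos2, Slc25a48 and Slc34a2. Slc40a1 was at 41.6 ppm in these cells and Atp2b1 at 733 ppm, the latter near the 667 ppm of members.

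The next 600 cells by score had S100g at 1253 ppm and Reg1 at 7502 ppm by the choice. Their stem cell markers summed to 491 ppm (members 189), goblet markers to 5169 ppm (2982) and cycling markers to 417 ppm (180); the part of these in the calls was not tested. Against them 24 of 8224 genes were called higher in members (0.292%) and 58 lower (0.705%). Higher were Sprr2a3, Akp3 (219 against 64.3 ppm), Slc16a9, Slc19a3, Ephx1, Car2 (84.4 against 29.7 ppm), Slc4a7 (604 against 234 ppm) and the manganese exporter gene Slc30a10 (151 against 58.3 ppm). Lower were Wls, Mki67 (10.3 against 50.6 ppm), Hmga2, Cdca3, Ube2c, Nhs and Ccdc34, of which Mki67, Cdca3 and Ube2c are genes of dividing cells.

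Members were also divided by genes known from the tip and base of the villus; their place on the villus was not measured. Within each set they were divided at the middle of a score, 6 tip genes (Ada, Slc28a2, Egfr, Klf4, Apoa4 and Creb3l3) minus 6 base genes (Reg3b, Reg3g, Nlrp6, Il18, Ccl25 and Lypd8), into 298 tip-like and 298 base-like cells, leaving out the middle cell of sets with an odd number, and these 12 genes were not counted. In all members 4 of the 6 tip genes were called lower than in other enterocytes, and 2 of the 6 base genes higher; the rule itself left out cells with Nt5e, another tip gene. Tip-like members had a median of 2654 detected genes and base-like members 2315.5, and enteroendocrine markers summed to 1133 and 366 ppm; their part in the calls was not tested. Of 8078 genes 50 were called higher in tip-like members (0.619%) and 12 lower (0.149%); with set 5, 6 or 8 left out 19 were called lower, and with set 7 left out 22. With 300 members 19 of the 50 and 2 of the 12 genes were still called, and with 1200 members 27 and 4. Apoc2, an apolipoprotein that activates lipoprotein lipase, was at 5991 against 1499 ppm (log2 difference 2.00, sets 1.71 to 2.95). Tmprss15 was at 134 against 30.5 ppm (2.10, sets 1.55 to 5.30) and Leap2, which encodes a peptide that blocks the ghrelin receptor, at 670 against 241 ppm (1.47). Base-like members were higher in Dmbt1, a mucosal scavenger receptor gene, at 987 against 423 ppm, and in Pdia6, a protein-folding enzyme gene, at 119 against 53.2 ppm.

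**Figure D5:**
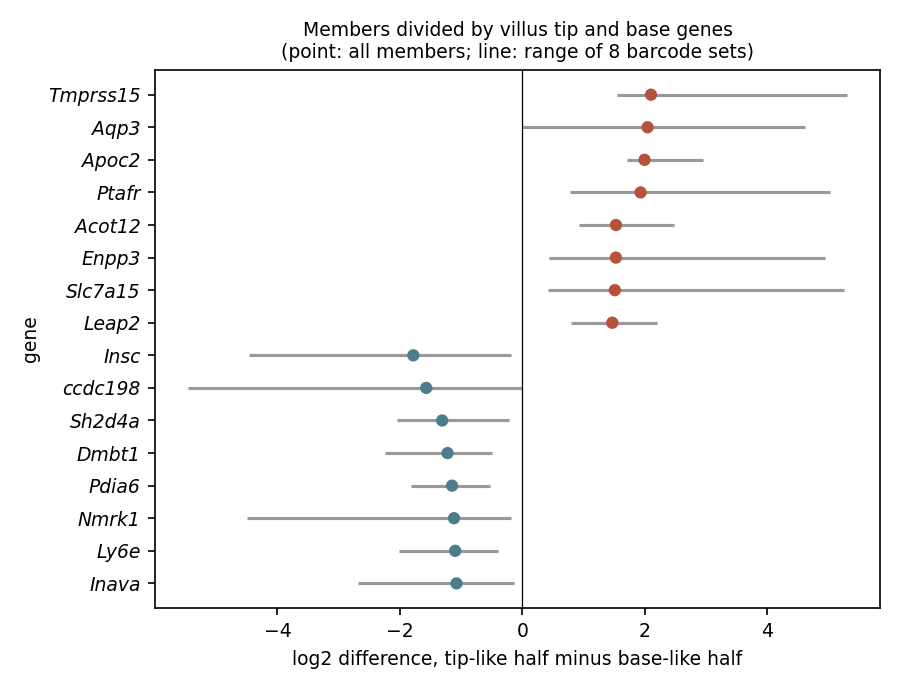
Log2 difference between tip-like and base-like members (point) and the range of the 8 barcode sets (line) for the 8 called genes with the largest and the 8 with the lowest difference. Ranges of low genes are wide, as for Aqp3 (17.4 against 3.45 ppm), and that of Apoc2 is narrow, from 1.71 to 2.95.

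Few genes were called when members were divided by their Reg1 level. Of 8096 genes 2 were called higher in cells with more Reg1 (0.0247%) and 9 lower (0.111%). Leaving out any 1 set asks for agreement of fewer sets and raised the first count to between 4 and 7; the second rose to 18 without set 1 or 6 and to 14 without set 2 or 4. The named genes called lower were all at low levels, such as Ahcy at 7.34 against 20.7 ppm and Hmgb2 at 45.2 against 103 ppm. The cells with more Reg1 had a median of 2334 detected genes and those with less 2668, and enteroendocrine markers summed to 295 and 1210 ppm, stem cell markers to 108 and 263 ppm and cycling markers to 140 and 216 ppm, whose part was not tested. Dividing by S100g, a choice made after values had been seen, gave 9 genes called higher of 8091 (0.111%) and 10 lower (0.124%). Car2 was at 126 ppm in cells with more S100g and 43.0 ppm in those with less, Slc4a7 at 829 against 384 ppm, Akp3 at 311 against 124 ppm and Cyp4a10, a fatty acid hydroxylase gene, at 79.8 against 36.6 ppm. Reg3a (69.2 against 200 ppm) and Car4, a membrane carbonic anhydrase gene (25.4 against 68.3 ppm), were called lower. Detected genes were 2485.5 and 2466.5 in these divisions, and goblet markers summed to 2392 and 3616 ppm.

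Promoters of the genes called higher were searched on both strands for 4 sets of letters, chosen after values had been seen. CAAAGTCC, like an HNF4 motif, was in 20 of 483 promoters of genes called higher (4.14%), in 8 of 935 of genes called lower (0.856%) and in 100 of 6791 of all genes considered (1.47%). TTAATNATT was in 2.07%, 1.07% and 0.810% of the same groups, the GATA-like letters AGATAA in 9.52%, 6.63% and 5.83%, and TTTATG in 7.04%, 6.74% and 5.80%. A match says only that these letters occur in the window. Hnf4a itself was at 150 ppm in members against 316 ppm and called lower, and Hnf4g at 579 against 684 ppm and not called. Over all alternatives described below, the log2 difference of Hnf4a ran from -1.25 to -0.42, which falls short of the call.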

How the data were processed

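Droplet single-cell RNA sequencing was read from 1 deposited table of the diet group (8 of 12 samples); the 2 total epithelium and 2 progenitor samples were not analysed here. Cell Ranger and mm10 were used, per the submitters' processing notes; no source used here gives versions, cell filters or later steps. Deposited by the authors, the values (20090 genes, 27881 cells) were taken as a score, since they are whole numbers but 25.3% of cells hold more 2s than 1s and totals span 2764 to 9739. Depth is therefore unknown, the count test was not used, and there are no p-values. Cells are not replicates.

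For each group of cells the values were added up, scaled to ppm, and compared as log2 with a pseudocount of 1 ppm, which understates low genes. Genes were considered at a mean of at least 10 ppm and called at an absolute log2 difference of at least 1 with the same direction in every barcode set with at least 20 members, which all 8 had. No cell was filtered, no doublet caller was run, and doublets may remain; 27802 of 27881 barcodes are distinct, and 157 cells share one with another set. Strand and the reads of overlapping genes were not examined.

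Members and lists were chosen with earlier results of these data known. The Slc10a2 and Fabp6 cells were an addition to the written design; crypt-free enterocytes, the next 600 cells, the division by S100g and the motifs were added after values had been seen. Named genes were the rule genes, up to 4 genes with the largest difference per list and others whose role the text needs, and outside the lists the 15 highest and 8 lowest called genes, or the 8 highest and 8 lowest in other comparisons, without names that begin with Gm or end in Rik. Some genes that this rule names are not reported here. Shares have exact binomial 95% intervals. Alternatives were other member numbers, scores, contrast groups, scalings, pseudocounts, minimum levels and each barcode set left out. The calling was run on simulated random (Poisson) counts with the same profile and fold differences in every barcode set. The deposited values are not known to be counts, so that run cannot show how the calling performs on them. Gene positions are GENCODE (GRCm38) and promoters RefSeq (GRCm38). Tools were matplotlib 3.10.9, pandas 2.3.3, scipy 1.17.1, numpy 2.4.6 and Python 3.11.15.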

Additional observations from a re-analysis of the deposited data

Results flagged for a closer look

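In 7 of 48 items tested over the 8 barcode sets of members, 1 set stood far from the others by the gap to its nearest neighbour relative to the whole range (Dixon's 95% critical value). Chance flags about 1 item in 20, and several of these items share a set. The 7 and the 48 both count Gsta1, whose values helped choose the members. Its flag is therefore no test result, and the 7 cannot be set against the chance rate as they stand. As a description only, Gsta1 was at 4570 ppm in set 8 (nearest set 3375, median 2796). Also in set 8 the bile acid list summed to 1388 ppm (nearest 754), with Fabp6 at 718 ppm. In set 4 goblet markers summed to 8855 ppm (nearest 4428, median 1572), tuft markers to 48.7 ppm (nearest 21.9) and the housekeeping list to 11687 ppm (nearest 10699). In set 7 enteroendocrine markers summed to 4858 ppm (nearest 1346, median 436) and stem cell markers to 697 ppm (nearest 343). Set 7 held 43 members. The part of these sets in other results was not tested beyond leaving them out.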

How the results depend on the processing

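All 577 genes called higher and 1207 called lower than in other enterocytes kept their direction under every alternative other than the score without Reg1, which kept 1205 of the 1207, and the crypt-free contrast. The number called higher was 249 against other enterocytes matched on detected genes, where 853 were called lower, 893 without scaling and 364 with a pseudocount of 10 ppm. With no minimum level 1942 were called lower. Against crypt-free enterocytes, an alternative chosen after seeing the data, 109 and 230 genes were called; 553 of the 577 and 929 of the 1207 kept their direction, and 91 and 146 were still called. Leaving out each barcode set in turn gave 521 to 680 genes called higher and 1114 to 1359 lower against other enterocytes, and 582 to 713 and 514 to 662 against Slc5a12 and Lct cells.

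Divided by Reg1, 0 genes were called higher and 1 lower with a pseudocount of 10 ppm, 6 and 14 with no minimum level, 9 and 4 with 300 members, and 3 lower with 1200 members; leaving out each set gave 4 to 7 and 9 to 18. Tip-like members had 28 genes higher and 5 lower with a pseudocount of 10 ppm, and 51 to 75 and 15 to 22 with each set left out; of the 50 and 12 genes, 19 and 2 were still called with 300 members and 27 and 4 with 1200. Reversals were listed only for 176 genes followed singly. Among these, direction reversed for Gkn1 (2.03) and Tff1 (0.95) with the score without Reg1. Against crypt-free enterocytes it reversed for Gip (0.96), Hmgb2 (0.095), Kcnq1ot1 (0.60), Lyz1 (0.18), Sorbs2os (0.75), Spink4 (0.14) and Tubb5 (0.56), all log2. By construction, the shares of sets 1 to 8 followed the number of members: 1.20, 0.458, 0.669, 1.84, 1.42, 2.25, 0.395 and 1.51% with 300, and 4.47, 2.58, 3.37, 10.9, 4.81, 6.17, 2.24 and 4.20% with 1200. Set 6 then had the largest share with 300 members and set 4 with 1200. The cause of the other shifts was not tested.

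No paired analysis was possible because the barcode sets carry no sample numbers and the table holds the diet group alone; the calls themselves compare cells within each barcode set. Values with no known depth limit statements on low genes, whose differences the pseudocount understates. Detected genes differ between members and other enterocytes (2482 and 1804), and 1 pooled sample gives no error between animals.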
